A study of Mus musculus with 8 samples.

Results

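The genes described here are 10 antiviral effector genes of the interferon response, Ifit1, Ifit2, Ifit3, Oasl2, Oas1a, Bst2, Rsad2, Ifitm1, Ifitm2 and Ifitm3, out of 20970 named genes with a probe on the array. They were chosen by name, and their probes were found through the RefSeq transcript that each probe is annotated to. This gave 11 probes, a single one for each gene except Oas1a, which had 2, and all 10 genes passed the filter on dim probes, as did 14390 named genes in total. Expression had been measured on 8 single-colour mouse arrays, 1 of embryonic stem cells (ESC) of line B6J-23, 4 of induced pluripotent stem cells (iPSCs) labelled OSKH and 3 of iPSCs labelled OSK, the control group of the series. The labels give all 8 samples as undifferentiated and of strain C57BL/6J. OSK is taken here to mean reprogramming with Oct4, Sox2 and Klf4, and the H an added factor, the oocyte linker histone H1foo, although the labels do not spell the letters out. The labels do not say whether the arrays of a group came from separate lines, clones or cultures, so that a p-value here covers the spread among these samples alone, and that spread may be technical. Nor do the labels give the cell type that was reprogrammed or how the factors were delivered.

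Cells make type I interferon when sensors find viral RNA or DNA, and secreted interferon binds a receptor on the same and neighbouring cells. The receptor kinases Jak1 and Tyk2 then activate transcription factors such as Stat2, which with Irf9 bind the interferon-stimulated response element (ISRE) in front of the effector genes. Pluripotent stem cells are known for a weak response to interferon and for holding some effectors, the Ifitm proteins among them, at a steady level without it. Members of the Ifit family bind foreign RNA, oligoadenylate synthetases such as Oas1a make the messenger that activates RNase L, and Oasl2 is a related protein. Tetherin, encoded by Bst2, holds budding virus at the cell surface, viperin, encoded by Rsad2, makes a chain-terminating nucleotide, and the Ifitm proteins act on membranes during virus entry.

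The ISRE was searched in the RefSeq promoter windows (GRCm38.p6, 250 bases before to 50 bases after each start) as GAAA, any 2 bases, GAAA, on both strands. It is shown because the effectors are known targets of the factors that bind it. It was found in 7 of the 10 genes, Ifit1, Ifit3, Oas1a, Bst2, Rsad2, Ifitm2 and Ifitm3, against 3.99% of the 27025 genes with a window and 3.44% of all windows. The 250 bases before the start of Ifit1, chr19:34640639-34640888 on the plus strand, follow with the matches in capitals, at bases -104 to -95 and -85 to -76 from the start.
Ifit1: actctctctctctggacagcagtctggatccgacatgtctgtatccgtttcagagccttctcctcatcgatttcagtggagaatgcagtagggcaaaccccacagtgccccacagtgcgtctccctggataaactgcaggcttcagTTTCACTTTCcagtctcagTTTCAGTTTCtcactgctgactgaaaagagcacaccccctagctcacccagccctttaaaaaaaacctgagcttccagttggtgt

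Windows of 30 bases around a match are given for the other 6 genes, with the match in capitals and each read 5′ to 3′ on the strand of its gene. The Oas1a and Bst2 windows each hold 2 overlapping matches, drawn as a single run of 16 capitals. They lie at chr19:34583363-34583392 (plus) for Ifit3, chr5:120907523-120907552 (minus) for Oas1a, chr8:71537580-71537609 (minus) for Bst2, chr12:26456553-26456582 (minus) for Rsad2, chr7:140955988-140956017 (minus) for Ifitm2 and chr7:141010706-141010735 (minus) for Ifitm3.
Ifit3: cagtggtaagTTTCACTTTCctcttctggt
Oas1a: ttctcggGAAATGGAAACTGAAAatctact
Bst2: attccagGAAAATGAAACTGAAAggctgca
Rsad2: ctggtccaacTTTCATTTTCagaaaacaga
Ifitm2: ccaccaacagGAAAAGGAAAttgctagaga
Ifitm3: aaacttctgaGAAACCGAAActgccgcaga
The same 10 capitals, TTTCACTTTC, stand in Ifit1 and Ifit3, both of which have a second match, TTTCAGTTTC. The Oas1a match is the nearest to its start among those before a start, at bases -20 to -5, and both Ifitm3 matches lie after its start, at bases 3 to 12 and, as shown, 20 to 29. No match was found in these windows for Ifit2, Oasl2 and Ifitm1. A second motif of interferon-induced genes, the gamma-activated site (GAS), searched as TTCNNNGAA on both strands, was found in Ifit2, Oas1a, Bst2 and Ifitm3, against 9.55% of genes, and it overlaps an ISRE match in Bst2 and Ifitm3.

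The share of probes well above background ran from 51.4% to 59% by array, and no spot was saturated. All 12 pluripotency markers were well above background on all 8 arrays, with summed levels (linear, 1 being the 75th percentile of the array) of 644 to 960, while 3 to 5 of 7 blood cell markers were, by array, at summed levels of 14.6 to 18.5, with Itgam, Csf1r and Cd3e well above background on all 8 arrays and Ptprc on none. The arrays lay on 1 slide, ESC and OSKH 1 to 3 in its row 1, OSKH 4 and OSK 1 to 3 in its row 2. OSKH 4 stood apart from the other iPSC arrays in the summed levels of its lineage markers. Summed endoderm markers were at 21.1 there and at 0.562 to 2.44 on the other arrays, and summed trophectoderm markers were at 77.6 against 20.6 to 32.1. The brightest genes weigh most in such sums, on OSKH 4 Foxa2 and Krt18. Gata6, Gata4, Sox17, Cdx2, Eomes, Krt7 and Krt8 were also highest on OSKH 4. Not all markers were: Cubn was lowest there, Dab2 was highest on OSKH 3, and Sox7, Gata3 and Tfap2c were highest on OSKH 1. Elf5 was well above background on no array. Summed fibroblast and feeder markers, of which Fap stayed near background throughout, were at 24.8 on OSKH 4, 22.8 on ESC, 8.53 to 13.4 on OSKH 1 to 3 and 5.5 to 10.4 on OSK. Thy1, the brightest of these markers on OSKH 1 to 3 and OSK, was highest on OSKH 3. Postn and Lum were highest on ESC, and Col1a1, Col1a2, Col3a1, Pdgfra, Pdgfrb, Twist1, Prrx1 and Dcn on OSKH 4. Because the samples are bulk RNA, fewer cells expressing a gene and less RNA per cell cannot be told apart.

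Levels are given below as log2 signal minus the log2 75th percentile of the array, so that 0 is the level of that percentile, and an array difference of 1 is 2-fold. Of the Ifit family, Ifit1 binds viral RNA that lacks the host cap modification. Its level was -1.05 on ESC, -2.22, -1.28, -0.86 and -3.29 on OSKH 1 to 4, and -2.55, -4.22 and -3.24 on OSK 1 to 3. OSKH 1 to 3 and ESC were higher than all 3 OSK arrays, while OSKH 4 lay among the OSK arrays. In signal units this was 205 on ESC, 102 to 250 on OSKH 1 to 3, 45.1 on OSKH 4 and 25.2 to 82.1 on OSK, with OSK 2 not well above background.

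Ifit2, a partner of Ifit1 and Ifit3 in RNA-binding complexes, was dim. It stood at -3.37 on ESC, at -3.62, -3.40, -2.76 and -2.88 on OSKH 1 to 4, and at -4.16, -3.99 and -3.40 on OSK 1 to 3, with OSK 1 not well above background. The groups overlapped, OSK 3 standing level with OSKH 2. Ifit3, which stabilises Ifit1, differed in its pattern, with the ESC array above all iPSC arrays. Its level was -1.63 on ESC, -3.72, -2.85, -3.50 and -3.36 on OSKH 1 to 4, and -4.64, -4.26 and -3.82 on OSK 1 to 3. All 4 OSKH arrays exceeded all 3 OSK arrays, and OSK 1 and OSK 2 were not well above background.

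Oasl2, a synthetase-like protein of the Oas family, had a level of 2.85 on ESC, 2.06, 3.65, 3.69 and 1.00 on OSKH 1 to 4, and 2.31, 1.23 and 1.83 on OSK 1 to 3. OSKH 2 and OSKH 3 were the highest arrays and OSKH 4 the lowest, below every OSK array. Oas1a, a synthetase of the RNase L messenger, was bright on all arrays. It was at 4.75 on ESC, at 5.15, 4.46, 4.99 and 3.16 on OSKH 1 to 4, and at 3.77, 2.97 and 3.09 on OSK 1 to 3. The signal ran from 11000 to 16900 on OSKH 1 to 3 and from 3690 to 6530 on OSK, with OSKH 4 at 3960. The second Oas1a probe gave the same pattern, with r = 0.998 to the first over 8 arrays, and Oas1a is close in sequence to other Oas1 genes, so its signal may include theirs.

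Bst2 was at 5.31 on ESC, 5.34, 5.76, 6.01 and 4.03 on OSKH 1 to 4, and 4.93, 4.67 and 4.68 on OSK 1 to 3. OSKH 4 was the lowest array again, at a signal of 7210 against 11800 to 14600 on OSK and 19300 to 29200 on OSKH 1 to 3. Rsad2, close to the detection limit, was at -2.70 on ESC, -2.99, -3.33, -2.98 and -5.97 on OSKH 1 to 4, and -4.77, -5.33 and -3.15 on OSK 1 to 3. It was not well above background on OSKH 4, OSK 1 and OSK 2, and its signal on OSKH 4, 7.06, lay beneath the lowest signal called well above background there, 26.8. OSK 3 stood within the range of OSKH 1 to 3.

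The Ifitm genes, neighbours on chromosome 7, were well above background on all arrays, at signals of 6380 to 23000. Ifitm1 was at 4.44 on ESC, 5.02, 4.00, 4.78 and 5.38 on OSKH 1 to 4, and 4.15, 3.76 and 4.12 on OSK 1 to 3. Here OSKH 4 was the highest array, and OSKH 2 lay below OSK 1 and OSK 3. Ifitm2 varied least, with a 1.31-fold range, at 4.75 on ESC, 4.86, 4.59, 4.64 and 4.85 on OSKH 1 to 4, and 4.47, 4.55 and 4.68 on OSK 1 to 3. Ifitm3, the best-studied restriction factor of the family, was at 5.34 on ESC, 5.59, 5.32, 5.57 and 4.73 on OSKH 1 to 4, and 5.06, 4.71 and 4.84 on OSK 1 to 3. Its probe was spotted 10 times on each array, and the spots of an array differed by an SD of 0.029 to 0.078 in log2, less than the SD of 0.18 among the OSK arrays.

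**Figure D1:**
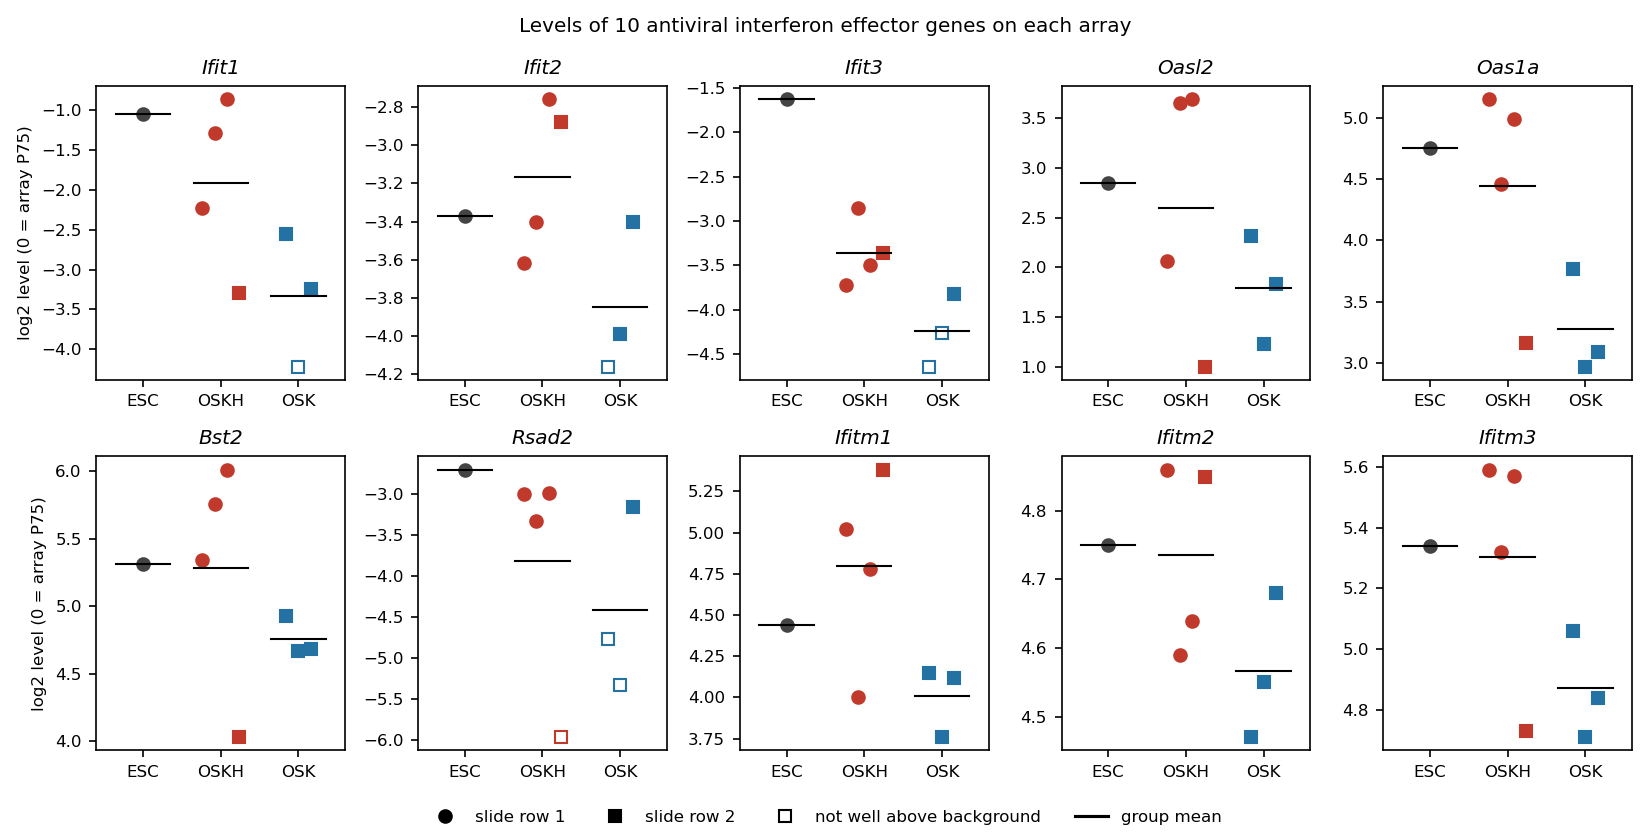
Log2 level of each of the 10 genes (y axis, 0 being the 75th percentile of the array, a different range in each panel) on each array, by group (x axis), with circles for slide row 1, squares for slide row 2, open symbols for arrays where the probe was not well above background and lines for group means. OSKH 4, the red square, is the lowest OSKH array in Ifit1, Oasl2, Oas1a, Bst2, Rsad2 and Ifitm3 and the highest in Ifitm1.

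Between OSKH and OSK, all 10 genes had a higher mean in OSKH, against 46.3% of the 22685 features tested, and none passed the test. With slide row as a block, which leaves OSKH 4 against OSK, 5 of the 10 differences were above 0. Without the block, 0 features (0%) had an adjusted p under 0.05 by limma, the lowest being 0.463. Of all features, 1470 (6.48%) had an unadjusted p under 0.05, and so did 3 of the 10 genes, Ifit2, Ifit3 and Ifitm1. The median difference over the 10 genes was 0.73, and over all features it was -0.013.

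Of the Ifit genes, Ifit1 had the largest difference, 1.42 (SE 0.65, 95% interval -0.12 to 2.97, adjusted p = 0.775), with a mean of -1.91 ± 1.08 (SD, n = 4) in OSKH against a mean of -3.34 ± 0.84 (SD, n = 3) in OSK. Ifit3 differed by 0.88 (SE 0.26, adjusted p = 0.732) and was the only one of the 10 whose OSKH and OSK arrays did not overlap, where 3.15% of all features had all OSKH arrays above all OSK arrays. Ifit2 differed by 0.68 (SE 0.27, adjusted p = 0.752). These 3 dim genes had smaller differences in the normexp alternative, which replaces the processed signal by the median signal with normexp correction and an offset, where they were 0.79 for Ifit1, 0.28 for Ifit2 and 0.34 for Ifit3.

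Oas1a differed by 1.16 (SE 0.49, adjusted p = 0.767), from 3.28 ± 0.43 (SD, n = 3) in OSK to 4.44 ± 0.90 (SD, n = 4) in OSKH, and its second probe by 1.29. For Oasl2, with an SD of 1.31 among the 4 OSKH arrays, the difference of 0.81 (SE 0.70, adjusted p = 0.9) was smaller than that spread. Bst2 differed by 0.53 (SE 0.46, adjusted p = 0.9) and Rsad2 by 0.60 (SE 0.87, adjusted p = 0.944), or 0.11 with normexp. Of the Ifitm genes, Ifitm1 differed by 0.78 (SE 0.32, adjusted p = 0.756), Ifitm3 by 0.44 (SE 0.23, adjusted p = 0.826) and Ifitm2 by 0.17 (SE 0.10, 95% interval -0.08 to 0.42, adjusted p = 0.85). The intervals of Oasl2 (-0.85 to 2.47) and Rsad2 (-1.47 to 2.66) allow a difference in either direction.

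Within OSKH, the arrays divided along the slide rows. This split was examined because an earlier look at these data had shown interferon gene levels that follow slide row. The shares of features set beside it, here and in the fit with slide row, are thus a description and no support for it. A set of 6 genes, Ifit1, Oasl2, Oas1a, Bst2, Rsad2 and Ifitm3, was higher on each of OSKH 1 to 3 than on OSKH 4, a pattern seen in 29.3% of all features. In 4 of them, Ifit1, Oas1a, Bst2 and Ifitm3, every row 1 array was above every row 2 array, which held for 1.99% of features. These 4 and Ifit3, 5 genes in all, were higher on each of OSKH 1 to 3 than on every OSK array, against 5.69% of features. OSKH 4 is the only OSKH array in row 2, so that its slide row and its sample cannot be told apart.

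In a fit with slide row as a term, the difference of OSKH 1 to 3 over OSKH 4 had a median of 1.22 for the 10 genes and 0.039 for all features. It was above 0 in 6 of the 10 genes and 57% of features, and under an unadjusted p of 0.05 in those 6 and 8.19% of features. Limma called 35 features (0.154%) at an adjusted p under 0.05, and none of the 10 genes was among them. OSKH 4 is a lone array, and the test assumes that it would vary like the other iPSC arrays. Bst2 came nearest, at 1.68 (SE 0.27, adjusted p = 0.132), a 3.2-fold difference. Oas1a differed by 1.71 (SE 0.39, adjusted p = 0.275), with the same value from its second probe, Ifitm3 by 0.77 (SE 0.19, adjusted p = 0.308) and Oasl2 by 2.13 (SE 0.73, adjusted p = 0.505).

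Ifit1 differed by 1.84 (SE 0.75, adjusted p = 0.609), or 0.93 with normexp. For Rsad2 the fitted difference was 2.87 (SE 0.78, adjusted p = 0.365), but OSKH 4 has only a bound, by which Rsad2 was at least 1.92-fold higher on OSKH 1 to 3. With normexp the Rsad2 difference was 0.43, less than that bound. The other 4 genes did not share the pattern. Ifitm1 was at -0.78 (SE 0.40, adjusted p = 0.743), Ifit2 at -0.38 (SE 0.42), Ifitm2 at -0.15 (SE 0.16) and Ifit3 at 0.00 (SE 0.43).

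When slide row was fitted as a block, OSKH against OSK became OSKH 4 against the 3 OSK arrays in its row. Then 5 of the 10 genes had a difference above 0, against 43.4% of features, and the median was -0.04, against -0.038 for all features. Limma called 47 features (0.207%), none of them among the 10. The direction turned for Oasl2 (-0.79), Bst2 (-0.73), Ifitm3 (-0.14) and Oas1a (-0.12), and Ifit1 was at 0.04. For Rsad2 the fitted value was -1.55, but the probe was not well above background on OSKH 4, OSK 1 and OSK 2, so that no direction is read from it. It held for Ifitm1 (1.37, SE 0.40, adjusted p = 0.338), Ifit2 (0.97), Ifit3 (0.88) and Ifitm2 (0.28).

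Without OSKH 4, the differences between OSKH 1 to 3 and OSK were 1.88 for Ifit1, 1.59 for Oas1a, 1.34 for Oasl2, 1.31 for Rsad2 and 0.94 for Bst2, and none passed the test. In these arrays slide row and group cannot be told apart. Rsad2 was not well above background on OSK 1 and OSK 2, so that its 1.31 rests on values below the detection limit there. The summed lineage markers above are high on OSKH 4, where the 6 genes are low, and their part in the result was not tested. The spike-in controls, RNAs added in known amounts, were at 3.756 on OSKH 4 relative to the 75th percentile, within the 3.663 to 3.89 of OSKH 1 to 3.

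**Figure D2:**
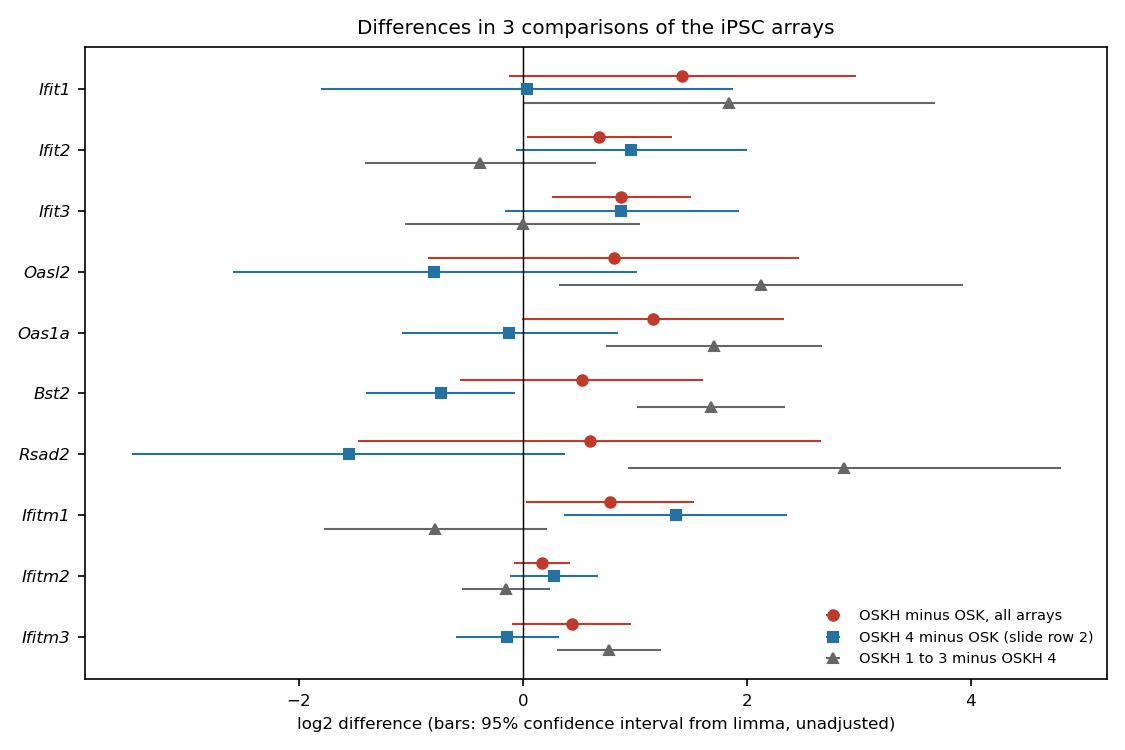
Log2 difference (x axis) of each gene (y axis) in 3 comparisons, with 95% confidence intervals from limma that are not adjusted for the number of features: circles for OSKH minus OSK, squares for OSKH 4 minus OSK, triangles for OSKH 1 to 3 minus OSKH 4. Circles are all to the right of 0, whereas the triangles are far to the right for Oasl2 (2.13) and Rsad2 (2.87) and left of 0 for Ifitm1 (-0.78).

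**Figure D3:**
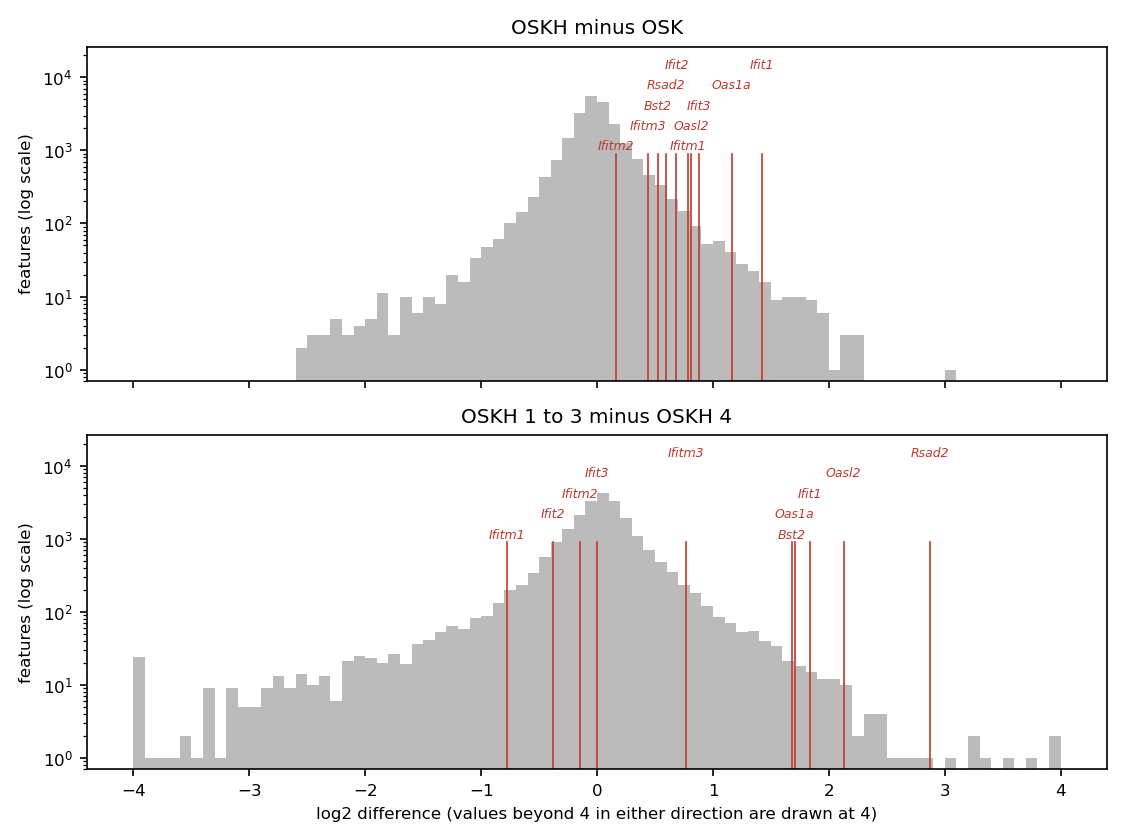
Number of features (y axis, log scale) by log2 difference (x axis) for OSKH minus OSK (top) and OSKH 1 to 3 minus OSKH 4 (bottom), with red lines at the 10 genes. All 10 lines are right of 0 at the top, and at the bottom 5 of them stand beyond 1.5.

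The ESC array lay within the range of the OSKH arrays for all of the 10 genes but Ifit3 and Rsad2, which were higher on ESC. For ESC minus OSKH, 8 of 10 differences were above 0, against 59.9% of features, with a median of 0.14, and limma called 0% of features, the smallest adjusted p being 0.392. Ifit3 differed most, at 1.73 (SE 0.38, unadjusted p = 0.00284, adjusted p = 0.999 by limma), a 3.31-fold higher level on ESC. With normexp it was 1.01, and within slide row 1, against OSKH 1 to 3, it was 1.73 (adjusted p = 0.802). Oasl2 (-0.28), Oas1a (-0.12), Bst2 (-0.40) and Ifitm3 (-0.16) lay below 0 within row 1, so that their order against ESC turned when OSKH 4 was left out.

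For ESC minus OSK, all 10 differences were above 0, against 57.3% of features, with a median of 0.81, and limma called 0% of features, the smallest adjusted p being 0.207. This comparison shares the OSK arrays with that of OSKH and OSK, and the ESC array is in slide row 1 and the OSK arrays in row 2. Ifit3 differed by 2.61 (SE 0.39, adjusted p = 0.597), Ifit1 by 2.29 (adjusted p = 0.823), Rsad2 by 1.71 and Oas1a by 1.47. Ifit3 and Rsad2 were not well above background on OSK 1 and OSK 2, nor was Ifit1 on OSK 2, which limits the size of their differences. With normexp Ifit3 was at 1.34, Ifit1 at 1.35 and Rsad2 at 0.5. Ifitm2 (0.18), Ifitm1 (0.42), Ifitm3 (0.47) and Ifit2 (0.48) differed least. With a single ESC array, the test takes its spread from the iPSC arrays alone. The spike-in controls were at 4.606 on ESC and at 3.58 to 3.89 on the iPSC arrays, and their part in the ESC differences was not tested.

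The levels of the 10 genes were set against each other over the 8 arrays, as a description that shares arrays, slide rows and scaling. Of 45 pairs, 40 had a positive Pearson's r, with a median of 0.44. Ifit1, Oasl2, Bst2, Oas1a, Ifitm3 and Rsad2 formed the most alike group, with Oas1a and Ifitm3 at 0.99, Oasl2 and Bst2 at 0.93 and Ifit1 and Oasl2 at 0.91. Rsad2 was at 0.71 to 0.77 with the others of this group. Its r values rest partly on OSKH 4, OSK 1 and OSK 2, where it was not well above background. Ifitm1 and Ifitm2 were at 0.81 with each other, and Ifitm2 was at -0.27 with Oasl2. Over these 8 arrays, Ifitm3 had a higher r with the Oas genes than with its neighbours Ifitm1 (0.25) and Ifitm2 (0.18). OSKH 4 weighs heavily in these low values. It was the highest array for Ifitm1 (5.38), and for Ifitm3 (4.73) it lay below all but OSK 2.

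**Figure D4:**
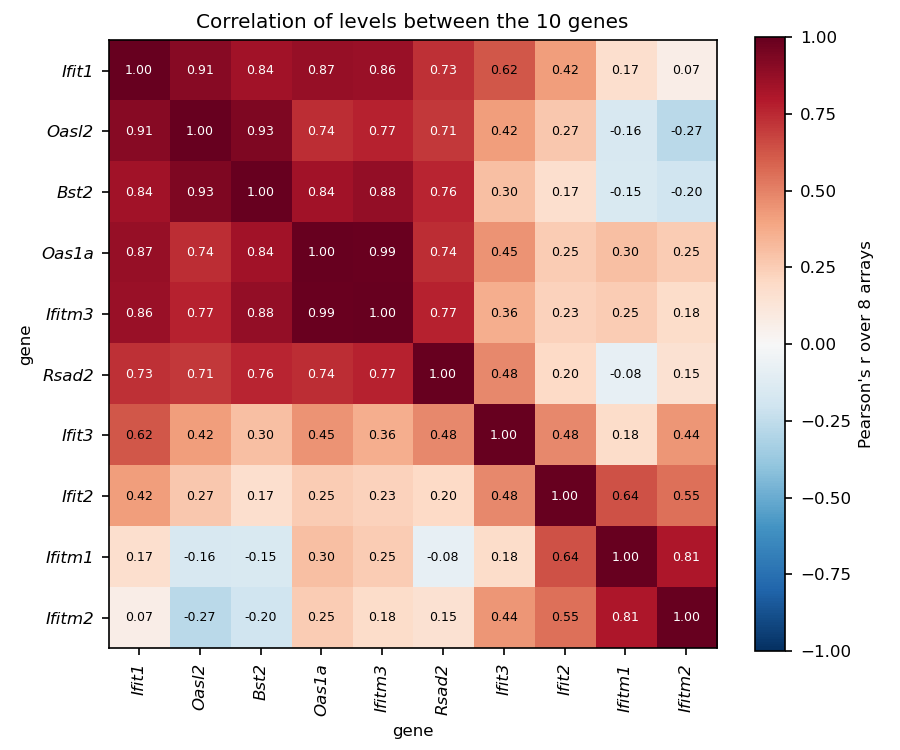
Pearson's r over 8 arrays between the log2 levels of each pair of the 10 genes (both axes), from blue at -1 to red at 1, as a description. A block of red covers Ifit1, Oasl2, Bst2, Oas1a, Ifitm3 and Rsad2, and Ifitm1 with Ifitm2 (0.81) is the brightest pair outside it. Rsad2 was not well above background on OSKH 4, OSK 1 and OSK 2.

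Among 14380 other named genes, those with a level most alike to the mean of the 10 were Taf7, a subunit of the general transcription factor TFIID (r = 0.981), Vmn1r204, a vomeronasal receptor (0.97), Ube2k, a ubiquitin-conjugating enzyme (0.961), Trim12c (0.956), Dtx3l (0.951), an E3 ubiquitin ligase partner of Parp9, and Kcnj9, a potassium channel (0.951), all over 8 arrays. The size of their variation differed. Trim12c differed by 1.00 (SE 0.38) between OSKH and OSK and by 1.28 (SE 0.32) between OSKH 1 to 3 and OSKH 4. Taf7 differed by 0.19 and 0.23, and Ube2k by 0.13 and 0.18, so that a high correlation came with a small range there. Vmn1r204 and Kcnj9 were not well above background on OSKH 4 and OSK 2.

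The other genes of the pathway were described from lists by role, and no gene of the 7 lists passed the test between OSKH and OSK or between OSKH 1 to 3 and OSKH 4. For the counts that follow, 46.3% of all features had a higher mean in OSKH than in OSK. A higher mean on OSKH 1 to 3 than the level on OSKH 4 was seen in 57% of all features. Of the interferons themselves, 5 of 9 with a probe were tested, 2 of them with a higher mean in OSKH, and the median difference was -0.017. All 5 were dim, and 4 had a higher mean on OSKH 1 to 3 than the level on OSKH 4, with a median of 0.22. Neither Ifna5 nor Ifna2 was well above background on an OSK array. For Ifna5 the bound on the fold of the means was 1.63 in OSKH, with a log2 difference of 0.71 (SE 0.14, adjusted p = 0.732 by limma). Ifna2 differed by 0.40 (SE 0.18, adjusted p = 0.769 by limma). It was not well above background on OSKH 4 either, and OSKH 2 and OSKH 4 lay below OSK 1, so that no bound is given for it. Of 9 receptors and kinases, 5 had a higher mean in OSKH, with a median of 0.042, and 3 were higher on OSKH 1 to 3 than on OSKH 4, with a median of -0.31. The receptor subunit Il10rb, not well above background on OSK, was at least 1.63-fold higher in OSKH (adjusted p = 0.519), and Ifnlr1, the receptor of type III interferon, differed by 0.24.

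Of 8 transcription factors tested, 6 had a higher mean in OSKH, with a median of 0.42, and all 8 had a higher mean on OSKH 1 to 3 than the level on OSKH 4, with a median of 0.86. The difference was small for Irf1 (0.01) and Irf3 (0.09). Irf7, which drives interferon genes and is itself induced by interferon, was at -2.34 on ESC, -2.37, -2.16, -1.73 and -5.64 on OSKH 1 to 4, and -3.46, -4.34 and -4.56 on OSK 1 to 3. It was not well above background on OSKH 4, OSK 2 and OSK 3, so that it was at least 3.88-fold higher on OSKH 1 to 3 than on OSKH 4 (adjusted p = 0.0828). Stat2, which acts with Irf9, differed by 0.64 (SE 0.30) between OSKH and OSK and by 0.99 (SE 0.26) between OSKH 1 to 3 and OSKH 4.

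Of 8 sensors tested, 5 had a higher mean in OSKH and 7 a higher mean on OSKH 1 to 3 than on OSKH 4, with medians of 0.17 and 0.51. The RNA sensor Ifih1 differed by 1.32 (SE 0.44, adjusted p = 0.732) between OSKH and OSK, whereas Sting1, the adaptor of DNA sensing, was at -0.69 (SE 0.35). Of 6 genes of feedback and Isg15 conjugation, 5 had a higher mean in OSKH and all 6 on OSKH 1 to 3. Isg15, a ubiquitin-like protein, was at 3.85 on ESC, 2.73, 4.51, 4.53 and 2.02 on OSKH 1 to 4, and 2.34, 1.26 and 1.66 on OSK 1 to 3. It differed by 1.69 (SE 0.68, adjusted p = 0.755) between OSKH and OSK, with OSKH 4 within the OSK range. Usp18, which removes Isg15 and restrains the receptor, differed by 1.15 between the groups and by 3.05 (SE 0.59, adjusted p = 0.194) between OSKH 1 to 3 and OSKH 4.

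Of 18 further effectors tested, 17 had a higher mean in OSKH, with a median of 0.55, and 13 were higher on OSKH 1 to 3 than on OSKH 4, with a median of 0.73. Gbp3, a guanylate-binding protein, differed by 1.39 (SE 0.50) and 1.31 (SE 0.62) in these comparisons. Ifi27 differed by 1.16 (SE 0.98) and 3.20 (SE 0.89, adjusted p = 0.375), with 5.56, 4.00 and 4.55 on OSKH 1 to 3 and 1.5 on OSKH 4. Of 11 other members of the Ifit, Oas and Ifitm families tested, 10 had a higher mean in OSKH, with a median of 0.11, and 9 were higher on OSKH 1 to 3 than on OSKH 4. Oas1f, close in sequence to Oas1a, differed by 1.29 (SE 0.49) and 1.68 (SE 0.41). Ifit3b was at -1.41 (SE 0.98), which rests on OSK 1, at -0.93, where the other OSK arrays and OSKH 1, 2 and 4 were not well above background.

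**Figure D5:**
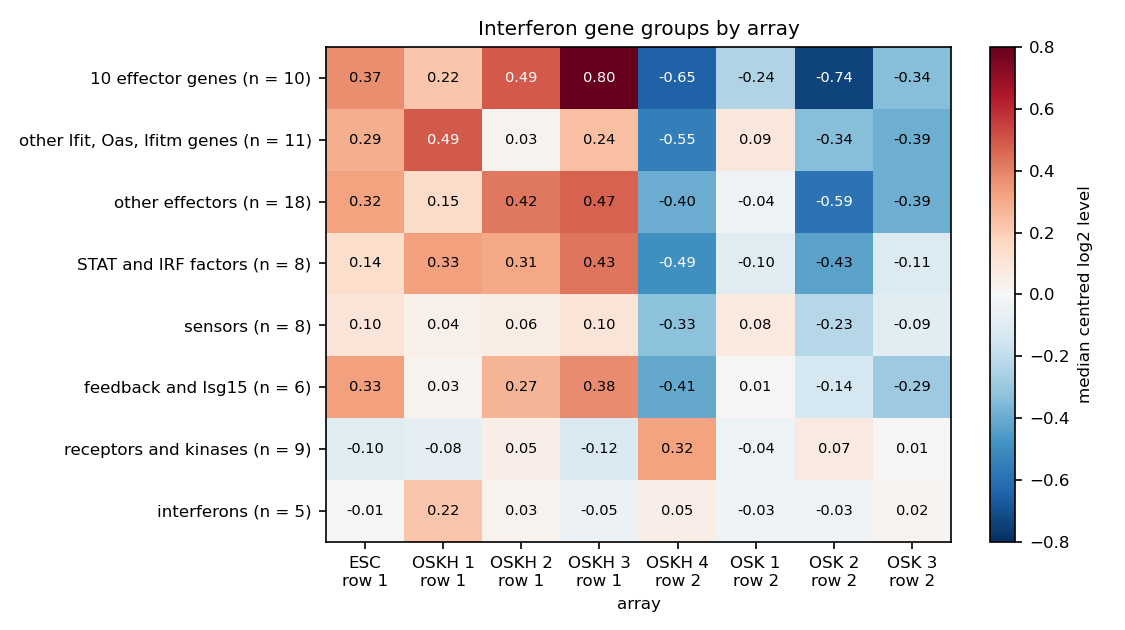
Median log2 level of the tested genes of each group (rows, n genes), each gene centred on its mean over the 8 arrays, by array and slide row (columns), from blue for below to red for above the mean. For the 10 effector genes OSKH 4 is at -0.65 and OSKH 1 to 3 at 0.22 to 0.8, while the receptors and kinases are at 0.32 on OSKH 4 and at -0.12 to 0.05 on OSKH 1 to 3.

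Genomic neighbours did not all follow the effectors. On chromosome 5, Oasl1 next to Oasl2 differed by 0.48 between OSKH and OSK and by 2.17 between OSKH 1 to 3 and OSKH 4, near the values of Oasl2. On chromosome 12, Cmpk2, a nucleotide kinase next to Rsad2 that is also induced by interferon, differed by 0.87 and 0.65. On chromosome 19, Ifit1bl2, which lies beside Ifit1, differed by 0.01 and 0.1. Ch25h, an interferon-induced hydroxylase of cholesterol near Ifit2, differed by 1.31 and -1.37, so that OSKH 4 lay above the mean of OSKH 1 to 3. On chromosome 7, Ifitm5 differed by 0.06 and -0.62, and on chromosome 8, Mvb12a next to Bst2 differed by 0.02 and 0.17.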

How the data were processed

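Cy3-labelled RNA was hybridised to 1 array per sample, per the labels. Agilent Feature Extraction 11.5.1.1 is named in the submitters' processing notes, and per the file headers the deposited intensity of a spot is its processed signal, background-subtracted and not scaled between arrays. The deposited flags are 0 or 1. The deposited value table is on a log2 scale and differed from log2 of the processed signal by a constant for each array, within 0.01, for 100% of probes, which settled its scale, direction and lack of centring by gene. Its column medians were -3.71 to -3.6. The software behind it was not given in the sources used here.

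Control spots and outlier spots were left out and the rest averaged by probe (55681 probes, 14 dropped for lack of a usable spot). Values were log2 signals minus the 75th percentile of the array (424 to 501 signal units). Symbols came from RefSeq accessions in a GRCm38.p6 table (27650 probes named, 28017 not), while the probe design refers to mm9. Probes tested were well above background on 3 or more of the 8 arrays, and the brightest by mean stood for its gene, leaving 22685 features. Limma 3.58.1 in R 4.3.3 (lmFit, eBayes, Benjamini-Hochberg over all features, threshold 0.05) was fitted to the 3 groups, taken from the sample titles, and again with slide row as a term. Precision is limited by the number of arrays. A fold against arrays that are all not above background is a bound, whose dim side is, on each array, the lowest signal called well above background, or the probe's signal where that is higher. The normexp alternative (offset 50) used median signals, since the files used here hold no mean signal.

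Same-numbered OSKH and OSK arrays deviated together over all features (r of 0.49, 0.21 and 0.37), so the numbers were taken to pair the arrays. Same-numbered arrays also share a slide column, so that a pairing and an effect of slide column cannot be told apart. Alternatives were other scalings, background corrections and filters, the deposited values, blocks, and leaving out each array. The genes, the lists and the split by slide row were chosen with earlier results of these data known. The text names all 10 genes, up to 2 tested genes of each interferon list with the largest OSKH minus OSK difference, the 6 genes most alike, and genomic neighbours, chosen after their values were seen. Promoter windows were found for all 10 genes (RefSeq, GRCm38.p6), with the start base counted as 1 and the base before it as -1.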

Additional observations from a re-analysis of the deposited data

Results flagged for a closer look

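Rsad2 on OSKH 4 lay far from the other OSKH arrays. The gap between its level there (-5.97) and the nearest OSKH array (-3.33) was 0.883 of the range of the group, above Dixon's 95% critical value for 4 arrays. Of the 10 genes examined, 1 exceeded it, and chance does so in about 1 in 20 groups. The probe was not well above background on OSKH 4, so the size of the gap rests on a value below the detection limit. With OSKH 4 set to the lowest signal called well above background there, the gap was 0.672 of the range, below the critical value.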

How the results depend on the processing

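None of the 10 genes passed the test under any alternative run. Between OSKH and OSK, slide row as a block gave 47 called features against 0, and a median difference of the 10 genes of -0.0375 against 0.734, with Oasl2 at -0.79, Oas1a at -0.12, Bst2 at -0.73, Rsad2 at -1.55 (3 of its 4 arrays not well above background) and Ifitm3 at -0.14. With array number as a replicate block (without ESC) the median was 0.913, and this pairing changed no call. OSKH 4 has no OSK array of its number, so that this fit rests on OSKH 1 to 3 against OSK. The main test did not use the pairing. Leaving out each array gave medians of 0.498 to 0.913 for OSKH minus OSK, -0.115 (without OSKH 4) to 0.379 for ESC minus OSKH, 0.645 to 0.979 for ESC minus OSK and 1.13 to 1.25 for OSKH 1 to 3 minus OSKH 4, and 0 called features in the first 3.

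For ESC minus OSKH, no filter on dim probes gave 11 called features against 0, and 9 for ESC minus OSK. Single genes of ESC minus OSKH turned direction: Ifit2 to 0.019 with normexp; Bst2 to -0.10, Ifitm2 to -0.089 and Ifitm3 to -0.078 with quantile normalization; Ifitm2 to -0.034 without OSKH 2 and -0.017 without OSKH 3; and Oasl2 to -0.28, Oas1a to -0.12, Bst2 to -0.40 and Ifitm3 to -0.16 without OSKH 4. Leaving out single arrays gave highest values of 0.62 for Oasl2, 0.54 for Oas1a, 0.27 for Bst2, 0.055 for Ifitm2 and 0.13 for Ifitm3.

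For OSKH 1 to 3 minus OSKH 4, the 35 called features became 112 with normexp, 308 with no filter, 11 with only probes measured above background on all arrays, and 0 to 45 when an array was left out (0 without OSK 2 or OSK 3, 1 without OSKH 2, 16 without OSKH 3, 11 without OSK 1). The median of the 10 genes became 0.617 with normexp, and Ifit3, at 0.00, became 0.064 with quantile normalization, 0.065 with median scaling, -0.26 without OSKH 2, 0.18 without OSKH 1 and 0.07 without OSKH 3. The causes were not tested. This comparison could not be fitted without OSKH 4. Ifit1, Ifit2, Ifit3 and Rsad2 were each not well above background on 1 or more arrays, which limits their values. The normexp alternative also replaced the processed by the median signal.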
